A study of Mus musculus with 59 samples.

Results

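The Wnt pathway genes described here are the ligands, receptors, secreted modulators and intracellular components whose symbols begin with Wnt, Fzd, Sfrp, Dkk, Axin, Tcf7, Dvl, Nkd or Rspo, together with Lef1, Lrp5, Lrp6, Ctnnb1, Gsk3a, Gsk3b, Apc and Porcn. The rule found 59 genes among the 18194 genes with a probe set of their own on the array, and each gene is given by the probe set with its highest mean signal. RNA came from C57BL/6 mice whose mothers were given, by mouth and once daily from E12.5 to E14.5, 3 doses of 300 mg/kg valproic acid (VPA), an antiepileptic drug that inhibits histone deacetylases, of 300 mg/kg valpromide (VPM), the amide of VPA, or of the vehicle alone, 0.5% methylcellulose (MC). No group was left undosed, so every comparison is with dosed mothers. All 3 groups were sampled in the embryo, as telencephalon 3 h after the E14.5 dose and as hippocampus and forebrain at E18.5. Hippocampus and cortex of adults aged 12 to 13 weeks, labelled male, came from the MC and VPA groups with or without a running wheel in the cage, and a further set of P84 hippocampus compared MC with VPA. There were 59 arrays in 19 groups, with 4 arrays in each P84 group and 3 in each of the others. The labels name the arrays as biological replicates but name no litters, so each p-value measures the spread between arrays.

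Wnt proteins are secreted ligands that carry a fatty acid added by Porcn, and they bind Frizzled receptors together with Lrp5 or Lrp6. In the absence of a ligand a complex built on Axin and Apc, with the kinases Gsk3a and Gsk3b, marks beta-catenin (Ctnnb1) for destruction. Ligand binding acts through Dishevelled to block that complex, and beta-catenin then joins the factors Tcf7, Tcf7l1, Tcf7l2 and Lef1 on DNA. Several members act back on the pathway: Axin2, Nkd1 and Lef1 are themselves transcribed in response to it in many tissues, Sfrp and Dkk proteins bind ligands or co-receptors, and R-spondins strengthen the signal. In the embryonic telencephalon the cortical hem, at the medial edge of the cortex, is a source of Wnt ligands for the forming hippocampus, and Wnt signals act on cortical progenitors.

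Signals are intensities scaled so that each array has the same trimmed mean of 500, and a signal under 32 was set to 32 before logarithms were taken. A gene was tested where it reached 100 on at least 3 arrays of a fit (4 at P84). At E14.5, 35 of the 59 members passed that filter, and 10 members (Dkk1, Dkk2, Dkk4, Lrp5, Rspo4, Wnt10b, Wnt16, Wnt3, Wnt5b and Wnt8a) stayed under 100 on every array of the study. The other 14 not tested at E14.5 were Wnt1, Wnt2, Wnt2b, Wnt3a, Wnt4, Wnt8b, Wnt9a, Wnt9b, Wnt10a, Wnt11, Rspo1, Sfrp5, Fzd10 and Fzd10os. The last is an opposite-strand transcript that lies beside Fzd10 and does not overlap it. All of these 14 except Wnt9b could be tested at a later age. A change was called where the Benjamini-Hochberg adjusted p of limma, taken over all genes tested, was below 0.05. Changes are log2 differences of group means with 95% confidence intervals, and levels are means ± SD, so a level belongs to 1 probe set and is not set against that of another gene. The tissue is whole, so fewer cells of a type and less RNA per cell cannot be told apart. Xist, read only as a check, showed the female pattern on 12 of 27 embryo arrays and on 0 of 32 adult arrays.

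In the E14.5 telencephalon VPA changed Wnt ligands, receptors, secreted modulators, cytoplasmic members and 1 nuclear member. The nuclear factor Lef1, the feedback genes Nkd1 and Axin2, the scaffold Dvl1, the secreted inhibitors Sfrp1 and Sfrp2, and the receptors Fzd2, Fzd3, Fzd4, Fzd5 and Fzd7 rose, of which Fzd5 passed the filter through its VPA arrays alone. The ligands Wnt7b and Wnt5a, the agonist Rspo3, the receptors Fzd1, Fzd6, Fzd8 and Lrp6, and the intracellular proteins Axin1 and Nkd2 fell. Of the 35 members tested, 11 rose (10 besides Fzd5), 9 fell and 15 did not pass the test. VPA called 53.8% of all 11068 genes tested at this age, 27.0% higher and 26.8% lower, so the members' share lies close to that background. The median change was -0.02 over the members tested and 0.00 over all genes. Without the third MC array or without the first VPA array 13 members passed, and on the signals without rescaling 9 did.

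**Figure D1:**
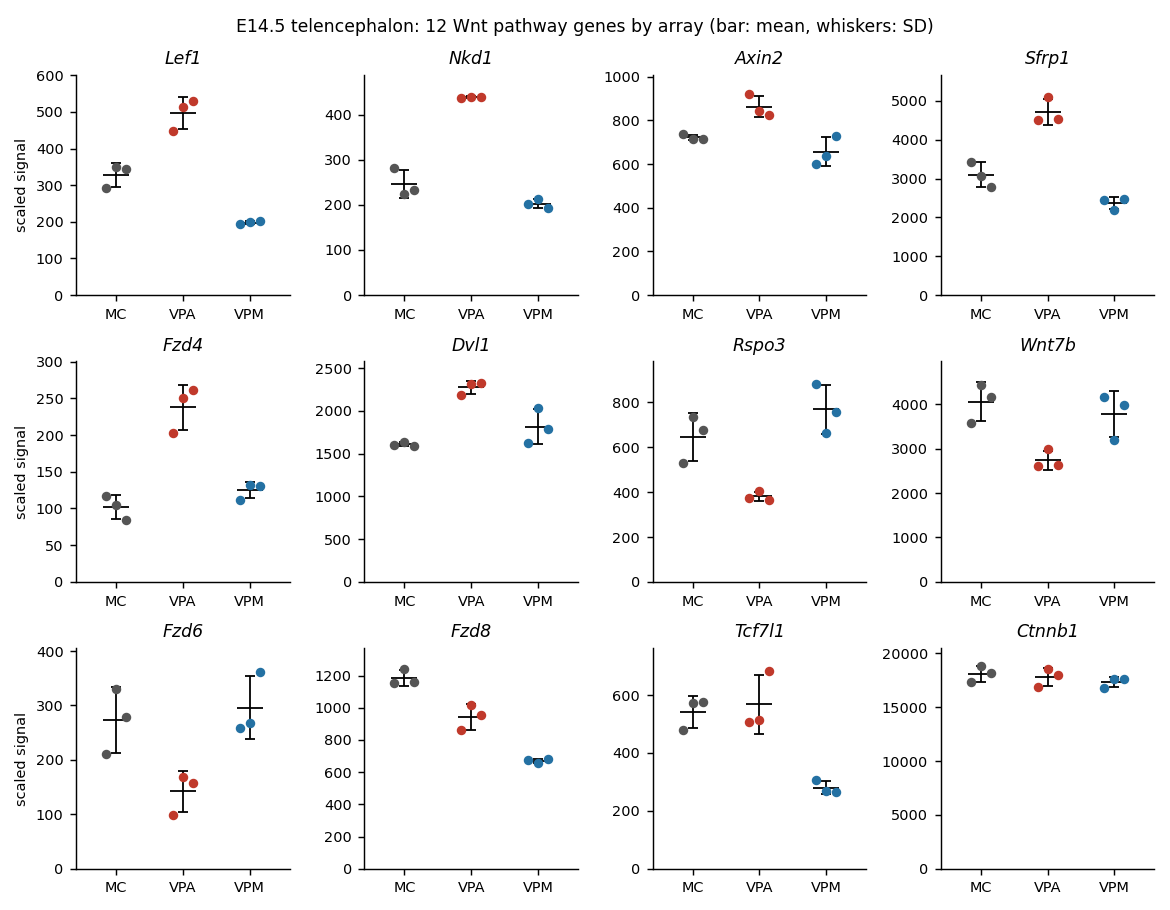
Scaled signal on each E14.5 array (points; 3 per group), with the group mean (bar) and SD (whiskers), for 12 Wnt pathway genes, 1 panel per gene on a linear axis from 0. All 3 VPA arrays lie above all 3 MC arrays for Lef1, Nkd1, Sfrp1 and Fzd4 and below them for Rspo3 and Wnt7b.

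The ligands that could be tested at E14.5 did not rise with VPA. Only 4 of 19 Wnt ligands passed the filter, and 2 of them fell. Wnt7b, a ligand that acts in cortex and on brain blood vessels, read 3581, 4444 and 4152 on the MC arrays, 2605, 2985 and 2627 on the VPA arrays, and 4154, 3196 and 3983 on the VPM arrays. Every VPA array was below every array of the other groups. The change from MC was -0.56 (-0.79 to -0.34; limma adjusted p = 0.00076), and the other Wnt7b probe set fell by 0.77. Wnt5a, a ligand best known for signalling that does not use beta-catenin, read 331, 313 and 341 with MC and 282, 263 and 252 with VPA, without overlap, a change of -0.30 (limma adjusted p = 0.0211). Wnt6 read close to 100 in both groups, with a change of 0.00 (-0.41 to 0.40). Wnt7a read 944 ± 85.4 with MC and 827 ± 9.62 with VPA (n = 3 each) and missed the threshold (limma adjusted p = 0.0577). Porcn, whose product acylates the ligands, read 605 ± 28.1 with MC and 579 ± 20 with VPA and did not pass. Wnt3a and Wnt10a were under the filter and were not tested, and they are named after their values were seen. Wnt3a read 74.2, 44.2 and 67.1 with MC and 37.3, 7.87 and 10 with VPA, and Wnt10a read 56.4, 62.8 and 66.9 with MC and 20.7, 23.7 and 10.3 with VPA. All VPA arrays of both genes were below all MC arrays, at signals that were all under 100.

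Receptors moved in both directions with VPA. Of 12 receptors and co-receptors 10 were tested, and 5 rose and 4 fell. Fzd4, which also serves as the receptor of the ligand norrin, read 117, 105 and 84.5 with MC, 203, 250 and 261 with VPA, and 112, 132 and 130 with VPM. The VPA arrays stood above all others, by 1.22 over MC (0.85 to 1.60; limma adjusted p = 9.85e-05). Fzd5 read 64.3, 27.5 and 63.6 with MC and 152, 109 and 127 with VPA, a change of 1.34 (limma adjusted p = 0.00158) in which 1 MC array lay under the floor. No MC or VPM array of Fzd5 reached 100, so it was tested only because its 3 VPA arrays did, and it had to differ to be tested. Fzd7 rose from 307 ± 35.2 to 411 ± 21.8, a change of 0.43 (limma adjusted p = 0.0278), and Fzd2 rose from 3417 ± 249 to 3986 ± 366, a change of 0.22 (limma adjusted p = 0.0258). Fzd3, a receptor of planar polarity and axon guidance, rose from 4878 ± 68.2 to 5946 ± 539 on its brightest probe set (0.28; limma adjusted p = 0.00757). The 3 of its other probe sets that passed the filter changed by -0.19, -0.15 and -0.17 and were not called. The direction for Fzd3 therefore depends on the probe set.

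The receptors that fell with VPA included Fzd6, a further planar polarity receptor. It read 210, 330 and 279 with MC, 99.2, 169 and 158 with VPA, and 258, 267 and 362 with VPM. All 3 VPA arrays were below the other 6, and the change from MC was -0.96 (-1.45 to -0.46; limma adjusted p = 0.00364). Fzd8 fell from 1182 ± 48.9 to 944 ± 79.4, a change of -0.33 (limma adjusted p = 0.00332). Smaller changes were called for Fzd1 (-0.24; limma adjusted p = 0.0284) and for the co-receptor Lrp6 (-0.21; limma adjusted p = 0.0445). Fzd9 read 510 ± 37.6 with MC and 529 ± 79.5 with VPA and did not pass.

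Among secreted modulators, 2 inhibitors rose and 1 agonist fell with VPA. Sfrp1, which resembles the ligand-binding part of a Frizzled and binds Wnts outside the cell, read 3427, 3074 and 2780 with MC, 4514, 5112 and 4525 with VPA, and 2457, 2178 and 2467 with VPM. The 3 groups did not overlap. Sfrp1 was higher with VPA by 0.61 (0.43 to 0.80; limma adjusted p = 8.8e-05), and of its 4 other probe sets 3 were called higher as well, at 0.33, 0.47 and 0.45. Sfrp2 rose from 1459 ± 64.3 to 1720 ± 154, a change of 0.23 (limma adjusted p = 0.0458). Dkk3, a divergent Dickkopf, read 419 ± 33.5 with MC and 414 ± 49.3 with VPA, and Sfrp4 read 145 ± 41.7 and 128 ± 36.8, and neither passed. Rspo3, an R-spondin that keeps Frizzleds at the cell surface, read 528, 734 and 677 with MC, 375, 404 and 366 with VPA, and 884, 665 and 758 with VPM. The VPA arrays lay below all others. The change from MC was -0.75 (-1.03 to -0.46; limma adjusted p = 0.000503), and the other Rspo3 probe set changed by -0.73, also called. Rspo2 read 148 ± 45.8 with MC and 109 ± 24.4 with VPA and did not pass (limma adjusted p = 0.197).

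All 11 members that act in the cytoplasm were tested, and with VPA 3 rose and 2 fell. Nkd1, which binds Dishevelled and dampens the signal, read 282, 225 and 232 with MC, 436, 440 and 439 with VPA, and 201, 213 and 193 with VPM. The VPA arrays were higher than every other array, by 0.84 over MC (0.59 to 1.09; limma adjusted p = 7.96e-05). The 3 other Nkd1 probe sets were called in the same direction, at 1.00, 0.57 and 0.95. Its relative Nkd2 moved the other way, from 156, 148 and 165 with MC to 112, 114 and 77.9 with VPA, a change of -0.64 (limma adjusted p = 0.00897) without overlap. Dvl1, 1 of 3 Dishevelled scaffolds, read 1600, 1637 and 1591 with MC and 2190, 2310 and 2327 with VPA, also without overlap, a change of 0.50 (0.33 to 0.67; limma adjusted p = 0.000193). Axin2 read 736, 716 and 714 with MC and 919, 844 and 827 with VPA. Its change was 0.26 (0.07 to 0.44; limma adjusted p = 0.0234), and its other probe set, at 0.17, did not pass. Axin1, the constitutive scaffold of the destruction complex, fell from 1134 ± 31.9 to 986 ± 60.3 (-0.20; limma adjusted p = 0.0258).

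The transcript of beta-catenin itself did not pass. Ctnnb1 read 18117 ± 740 with MC and 17810 ± 868 with VPA, and its change of -0.03 had an interval from -0.14 to 0.09. Gsk3a, a kinase of the destruction complex, read 1731 ± 136 with MC and 1728 ± 121 with VPA, with an interval of the change from -0.17 to 0.16. These intervals leave out changes as large as those of Nkd1 and Dvl1. The interval was wider for Gsk3b, from -0.37 to 0.25 around -0.06, and for the dim Dvl3, from -0.51 to 0.91. Dvl2, at 0.28 (0.01 to 0.54), and Apc, at -0.12 (-0.24 to 0.00), missed the threshold (limma adjusted p = 0.0732 and 0.0776).

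Of the 3 nuclear members tested, Lef1 alone passed with VPA. Lef1 read 291, 349 and 343 with MC, 448, 514 and 529 with VPA, and 193, 199 and 201 with VPM. No arrays overlapped between groups, and VPA stood highest and VPM lowest. The change with VPA was 0.60 (0.36 to 0.84; limma adjusted p = 0.000692), and the other Lef1 probe set, at 0.25, did not pass (limma adjusted p = 0.173). Tcf7l1, mostly a repressor in the absence of signal, read 542 ± 55.8 with MC and 568 ± 101 with VPA, a change of 0.06 (-0.23 to 0.34) that did not pass. Tcf7l2 read 120 ± 10.1 with MC and 116 ± 8.53 with VPA.

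Start sites of Lef1, Axin2 and Nkd1, the members known as feedback targets of the pathway that were described above, are shown for the core letters that TCF and LEF factors bind. Each window holds 250 bases before and 50 after a start in the RefSeq annotation of GRCm38.p6, on the plus strand, and capitals mark CTTTGA or its reverse complement TCAAAG, which do not overlap each other here. The second Lef1 window printed, 1 of 4 for that gene, holds the core 2 times and was printed because it does. Every other Lef1 window holds it 0 times.
Lef1, chr3:131110047-131110346: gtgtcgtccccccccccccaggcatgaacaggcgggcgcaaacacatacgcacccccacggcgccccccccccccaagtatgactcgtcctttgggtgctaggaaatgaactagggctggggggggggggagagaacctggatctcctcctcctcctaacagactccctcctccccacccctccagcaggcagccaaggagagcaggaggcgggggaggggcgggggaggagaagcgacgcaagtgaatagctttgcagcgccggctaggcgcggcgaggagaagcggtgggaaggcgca
Lef1, chr3:131156044-131156343: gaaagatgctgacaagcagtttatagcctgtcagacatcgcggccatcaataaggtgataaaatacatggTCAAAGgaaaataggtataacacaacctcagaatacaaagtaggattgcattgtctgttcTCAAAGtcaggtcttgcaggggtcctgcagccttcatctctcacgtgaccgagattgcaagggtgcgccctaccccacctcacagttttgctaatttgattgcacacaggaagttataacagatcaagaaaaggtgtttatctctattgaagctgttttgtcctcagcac
Axin2, chr11:108920099-108920398: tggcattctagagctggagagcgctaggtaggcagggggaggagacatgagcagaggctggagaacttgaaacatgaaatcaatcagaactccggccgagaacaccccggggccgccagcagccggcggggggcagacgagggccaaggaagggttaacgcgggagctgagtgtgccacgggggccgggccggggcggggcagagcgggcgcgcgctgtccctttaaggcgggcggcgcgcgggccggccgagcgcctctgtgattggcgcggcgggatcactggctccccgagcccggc
Nkd1, chr8:88527383-88527682: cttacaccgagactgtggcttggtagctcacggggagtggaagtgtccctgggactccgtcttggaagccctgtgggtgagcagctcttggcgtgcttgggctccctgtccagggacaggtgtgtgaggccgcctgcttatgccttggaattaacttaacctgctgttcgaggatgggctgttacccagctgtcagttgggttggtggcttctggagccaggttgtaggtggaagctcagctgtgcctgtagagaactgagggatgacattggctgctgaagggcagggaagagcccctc
These 6 letters on either strand occur in 16.0% of all 32851 promoter windows, and in 14.9% of the 47 windows that belong to 39 members. The 7 members with the core were Dkk1, Fzd1, Gsk3a, Gsk3b, Lef1, Wnt11 and Wnt5b. With VPA at E14.5 Lef1 rose, Fzd1 fell, Gsk3a and Gsk3b did not pass, and Dkk1, Wnt11 and Wnt5b were not tested. A match describes letters only, and its absence from the Axin2 and Nkd1 windows says that these letters are not within those 300 bases. The gene coordinates begin at 131110297 for Lef1, 108917828 for Axin2 and 88521342 for Nkd1. The Axin2, Nkd1 and second Lef1 windows therefore lie inside the gene and do not cover its first base.

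Probe sets other than the brightest passed the filter for 15 of the 20 members that VPA changed. The further probe sets of Fzd4, Fzd5, Fzd6 and Fzd7 did not pass it. Of the 23 further probe sets that passed the filter, 20 moved in the direction of the brightest one, 14 were called that way and 0 were called the other way. The 3 that moved the other way were the Fzd3 probe sets.

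**Figure D2:**
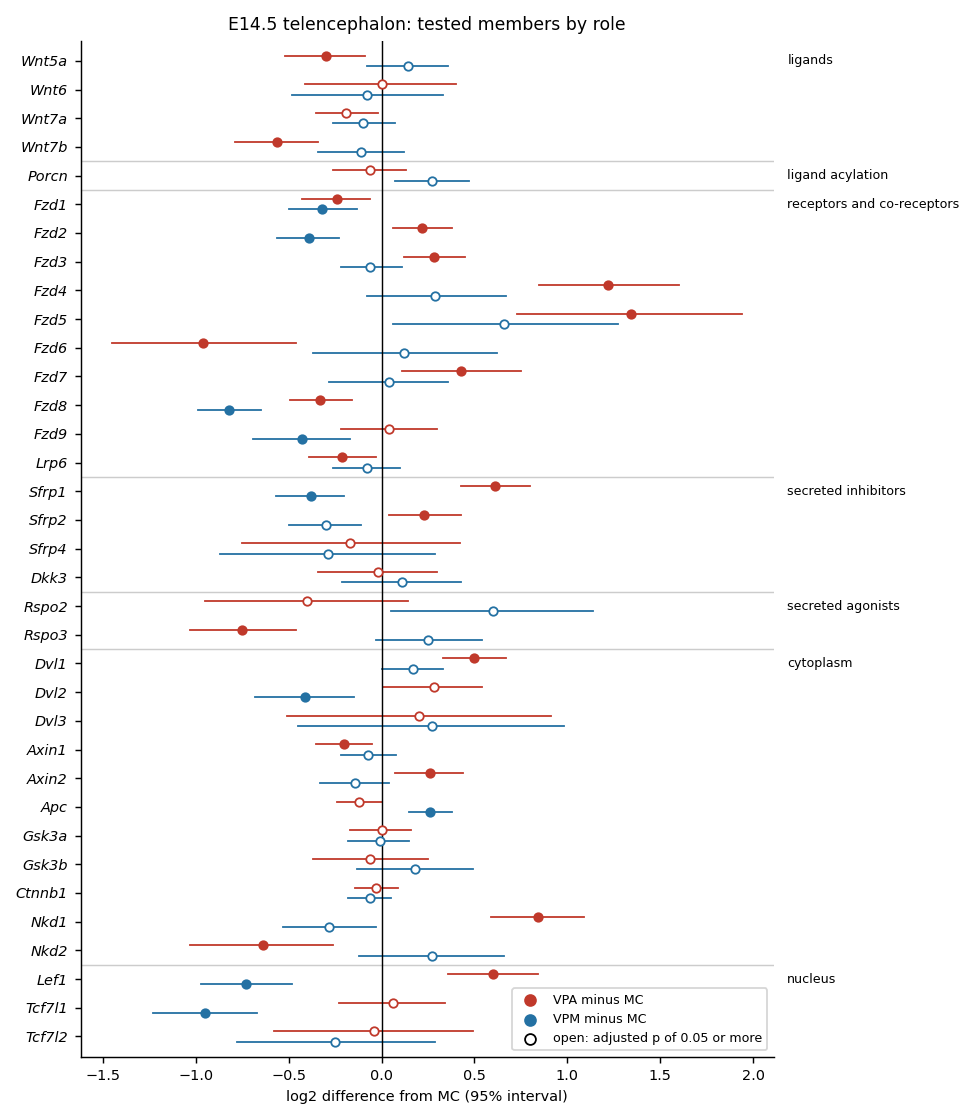
Log2 change with its 95% confidence interval for the tested members at E14.5, for VPA against MC (red) and for VPM against MC (blue), ordered by role; filled points had an adjusted p below 0.05. Lef1 lies at 0.60 with VPA and -0.73 with VPM, and Nkd1 at 0.84 and -0.28. The 2 comparisons share the MC arrays.

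Pathway genes outside the members were read from 5 lists, beside the 27.0% higher and 26.8% lower among all genes with VPA. Of 8 tested genes for Wnt secretion and extracellular handling, 4 rose and 2 fell with VPA, with the Wnt carrier Wls at 0.56, Reck, a partner of Wnt7 signalling, at 0.89, and the norrin gene Ndp at -0.57. Of 17 tested genes for other receptors and planar polarity, 6 rose and 4 fell, among them the Dkk receptor Kremen1 at 1.46, the R-spondin receptor Lgr4 at 1.56 and the ubiquitin ligase Znrf3, which removes Frizzleds, at 0.51. Cytoplasmic partners split into 8 that rose and 6 that fell of 23, with the Dishevelled-binding protein Dact3 at 1.62 and the ubiquitin ligase Siah1a at -0.80. Most nuclear cofactors were lower with VPA: 12 of 18 fell and 1 rose, with the coactivator Crebbp at -1.03, the beta-catenin cofactor Pygo1 at -1.32 and the corepressor Ctbp1 at -0.56. Of 13 tested target genes 3 rose and 7 fell, among them the proneural factor Neurog1 at -2.12, Mycn at -0.63, and the cell cycle gene Ccnd1 at -0.47. The median change was -0.39 over the nuclear cofactors and -0.40 over the targets.

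Markers of cell types and regions moved beside these changes. The telencephalon list, read over Emx1, Emx2, Lhx2, Pax6, Tbr1 and Neurod6, summed to between 19365 and 20533 on the MC arrays, 13257 to 14149 with VPA and 15406 to 19348 with VPM, and 6 of 6 genes fell with VPA. Radial glia markers summed to 48084 to 50902 with MC and 41964 to 43602 with VPA, with 4 of 8 genes lower and 0 higher. Neuron markers summed to 39886 to 40899 with MC and 37773 to 38941 with VPA, with 1 of 5 higher and 2 lower. Endothelium and pericyte markers ran from 4308 to 4777 with MC and from 3625 to 3985 with VPA, with 5 of 10 lower and 0 higher. The cortical hem list, which holds the members Rspo3, Wnt3a and Wnt2b, ran from 699 to 890 and from 462 to 594. Of 2 genes tested there 1 was lower, Rspo3 itself, and the median change was -0.01. Rspo3 makes up most of this sum, so the sum is not a marker separate from the members. Thalamus and diencephalon markers ran from 3701 to 4031 with MC and from 3200 to 3330 with VPA. Of 6 genes tested there 1 rose and 2 fell, with a median change of 0.08. Adult cortex markers ran from 3914 to 4611 and from 2291 to 2563, with 1 of 3 tested higher and 2 lower. Astrocyte markers ran from 2817 to 3438 and from 2207 to 2399, with 1 of 3 tested lower and a median change of 0.04. Red blood cell markers ran from 11045 to 13026 and from 6634 to 10092, with 2 of 5 lower and 0 higher. Choroid plexus markers ran from 235 to 355 with MC and from 375 to 460 with VPA, with 2 genes tested and 0 called. The meninges sum was 684 to 845 with MC and 900 to 1012 with VPA, although of 5 genes tested 1 rose, Crabp2, and 2 fell. The part of these differences in the changes of the Wnt genes was not tested.

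VPM at the same dose and time changed fewer members, and mostly lowered them. Tcf7l1 and Lef1 in the nucleus, the receptors Fzd8, Fzd2, Fzd1 and Fzd9, the inhibitor Sfrp1 and the scaffold Dvl2 fell, and Apc rose. Of 35 members tested 1 rose, 8 fell and 26 did not pass, where VPM called 11.6% of all genes, 5.65% higher and 5.91% lower. The median change was -0.07 over the members tested and -0.01 over all genes. The third VPM array carried a choroid plexus marker sum of 20595, against 295 and 469 on the other VPM arrays and 235 to 355 with MC. Without it 5 members passed, Tcf7l1, Fzd8, Lef1, Sfrp1 and Fzd2, and 4 others no longer did. Of these the change went from -0.43 to -0.47 for Fzd9, from -0.32 to -0.32 for Fzd1, from 0.26 to 0.23 for Apc and from -0.41 to -0.30 for Dvl2, in a fit with fewer arrays. On the signals without rescaling 0 rose and 5 fell.

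Tcf7l1 read 478, 572 and 576 with MC, 506, 513 and 684 with VPA, and 305, 269 and 266 with VPM. All VPM arrays were below all others, with a change from MC of -0.95 (-1.23 to -0.67; limma adjusted p = 0.0019) and of -1.11 on the other probe set. It was -0.91 without the third VPM array (limma adjusted p = 0.0119). Fzd8 read 1152, 1239 and 1157 with MC and 673, 657 and 679 with VPM, a change of -0.82 (-0.99 to -0.65; limma adjusted p = 0.000533). Lef1 changed by -0.73 with VPM (-0.97 to -0.48; limma adjusted p = 0.00269), and its other probe set by -0.52 (limma adjusted p = 0.0453). Sfrp1 changed by -0.38 (-0.57 to -0.20; limma adjusted p = 0.0143) and Fzd2 by -0.39 (limma adjusted p = 0.00774). Apc, the large scaffold of the destruction complex, rose from 7431 ± 328 to 8925 ± 424, a change of 0.26 (limma adjusted p = 0.0105) that did not pass without the third VPM array. Nkd1, at -0.28 (-0.53 to -0.03), did not pass with VPM (limma adjusted p = 0.138), nor did Axin2, at -0.14 (limma adjusted p = 0.315).

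In the other pathway lists, beside the 5.65% higher and 5.91% lower among all genes, VPM moved the target genes Neurog1, by -1.39, Emx2, by -0.51, Jun, by -0.49, and Ccnd1, by -0.45, with 4 of 13 lower and 0 higher. Of the other receptors and planar polarity genes 2 rose, Daam1 by 0.67 and Prickle2 by 0.45, and 4 fell, with Celsr1 at -0.57 and Ror2, a Wnt5a receptor, at -0.67. The nuclear cofactors gave 1 gene that rose, the corepressor Tle4 at 0.31, and 0 that fell. Radial glia markers summed to 41882 to 44849 with VPM, below the MC range of 48084 to 50902, with 4 of 8 lower and 0 higher, and 4 of 6 telencephalon markers were lower. Neuron markers summed to 46456 to 49310 with VPM, above the MC range, with 3 of 5 higher. Endothelium and pericyte markers summed to 5132 to 6083, with 2 of 10 higher. Oligodendrocyte markers summed to 937 to 1176 (486 to 687 with MC), with 2 of 2 tested higher. Microglia markers summed to 1435 to 1601 (1186 to 1327 with MC), with 0 of 5 tested called. Hippocampus markers summed to 1466 to 1917 (1219 to 1433 with MC), with 0 of 3 tested called. Cortical hem markers summed to 1015, 931 and 20252 (699 to 890 with MC), with 0 of 2 tested called. The hem sum of 20252 was on the third VPM array, which had the choroid plexus sum of 20595. These sums also stood close in E18.5 forebrain with MC, at 17480 to 24386 for the hem and 18181 to 26025 for choroid plexus. They are not read as separate markers on that VPM array. All of these sums lay above the MC ranges. Red blood cell markers, at 2646 to 3310, and thalamus and diencephalon markers, at 3245 to 3488, lay below them. Of 5 red blood cell genes 1 rose and 2 fell, and of 6 thalamus genes tested 0 rose and 2 fell. Their part in these results was not tested.

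The acid and its amide were then compared directly, at matched dose and time. VPA and VPM differ in structure by a carboxylic acid in place of a carboxamide. Between them 14 members were higher with VPA, 8 were lower and 13 did not pass, where 54.5% of all genes passed, 27.5% higher and 27.0% lower. This is 1 pair of compounds, and p-values were adjusted over all genes. The median difference was 0.07 over the members and -0.01 over all genes. The widest differences upward lay in Lef1, at 1.33 (1.09 to 1.57; limma adjusted p = 1.88e-06), Nkd1, at 1.12 (0.87 to 1.36; limma adjusted p = 8.48e-06), Tcf7l1, at 1.01 (limma adjusted p = 4.96e-05), and Sfrp1, at 0.99 (0.81 to 1.18; limma adjusted p = 2.11e-06). Axin2 was higher with VPA by 0.40 (0.21 to 0.58; limma adjusted p = 0.00189). Both R-spondins tested were lower with VPA, each at -1.0, with Rspo3 at a limma adjusted p of 5.52e-05 and Rspo2 at 0.00515. Fzd6 was lower at -1.08, Nkd2 at -0.91, Wnt7b at -0.46, Wnt5a at -0.45, Apc at -0.38 and Porcn at -0.33. The receptors Fzd4 (0.93), Fzd2 (0.62), Fzd8 (0.49), Fzd9 (0.47), Fzd7 (0.39) and Fzd3 (0.34) were higher with VPA. Other Fzd3 probe sets that passed the filter differed by 0.38, which was called (limma adjusted p = 0.0204), and by 0.15 and -0.14, which were not.

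Some members did not separate the 2 compounds. For Ctnnb1 the difference was 0.04, with an interval from -0.08 to 0.15. For Fzd1, which fell with each compound, by 0.24 with VPA and by 0.32 with VPM, the difference between them was 0.07 (-0.11 to 0.26). Fzd5, at 0.67, missed the threshold (limma adjusted p = 0.0573). Of the 25 other probe sets that passed the filter, from 15 members called here, 24 had the same direction and 21 were called.

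By E18.5, 4 days after the last dose, no member passed in either tissue. In the hippocampus 38 members were tested, with 0 passed for VPA against MC, for VPM against MC and for VPA against VPM, where limma called 0%, 0.00867% and 0% of all genes. At an unadjusted p under 0.05 stood 8, 6 and 3 members. The share of all genes under that unadjusted p was not taken, here or below. Such counts are therefore descriptions, and the shares called at the adjusted p are not their background. In the forebrain 36 members were tested with 0 passed in each comparison, where 2.16%, 0% and 0.530% of all genes were called, and 6, 3 and 5 members stood under an unadjusted p of 0.05.

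The smallest adjusted p-values at E18.5 were those of Fzd1 and Dkk3 in the forebrain. Fzd1 in the forebrain read 1421, 1670 and 1564 with MC and 1257, 1352 and 1224 with VPA. These arrays did not overlap, and the change was -0.28 (-0.42 to -0.14; limma adjusted p = 0.051). Without the first MC array it was -0.34 and passed (limma adjusted p = 0.0357). Dkk3 in the forebrain read 652, 687 and 689 with MC, 919, 1116 and 870 with VPA, and 674, 579 and 837 with VPM. All VPA arrays were above all others, at 0.51 over MC (limma adjusted p = 0.059). Fzd2 in the forebrain read 644, 735 and 853 with MC and 327, 482 and 644 with VPA, a difference of -0.66 (limma adjusted p = 0.146). In the forebrain the choroid plexus markers summed to 18181 to 26025 with MC and 651 to 4978 with VPA, and 7 of 7 tested fell. Their part in these values was not tested.

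In the E18.5 hippocampus Lef1, which marks progenitors of the forming dentate gyrus and is needed for it, read 380, 306 and 336 with MC, 251, 282 and 191 with VPA, and 219, 261 and 242 with VPM. Both drug groups lay below all MC arrays. The differences from MC were -0.51 with VPA (limma adjusted p = 0.228) and -0.50 with VPM (limma adjusted p = 0.37), and neither passed. Fzd7 read 922, 667 and 715 with MC, 555, 600 and 486 with VPA, and 636, 572 and 511 with VPM, with differences of -0.48 and -0.41 that did not pass. The choroid plexus sum in this tissue varied within groups, from 1741 to 30693 with MC and from 1104 to 28131 with VPM.

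The VPA effect at E18.5 in forebrain was set against that at E14.5 in telencephalon in 1 fit with an interaction term. It differed in 15 of 38 members tested, in 5 upward and in 10 downward, where 39.1% of all genes differed, 18.7% upward and 20.4% downward. The 10 downward members had all been called higher at E14.5: Sfrp1 (difference -0.70), Dvl1 (-0.53), Fzd4 (-1.04), Nkd1 (-0.93), Fzd5 (-1.40), Fzd3 (-0.36), Fzd2 (-0.88), Lef1 (-0.96), Fzd7 (-0.79) and Sfrp2 (-0.30). Fzd5 entered this test through its E14.5 VPA arrays alone, so its value is a description. The upward members were Wnt7b (0.56), Nkd2 (0.74), Fzd6 (0.99) and Axin1 (0.26), which had fallen at E14.5, and Dkk3 (0.53), which had not passed there. At E18.5 the VPA change was -0.36 for Lef1, -0.10 for Nkd1, -0.09 for Sfrp1, 0.18 for Fzd4 and -0.01 for Wnt7b, and none passed. The ages differ in dissection as well as in time since the dose, and on the signals without rescaling 4 members differed.

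**Figure D3:**
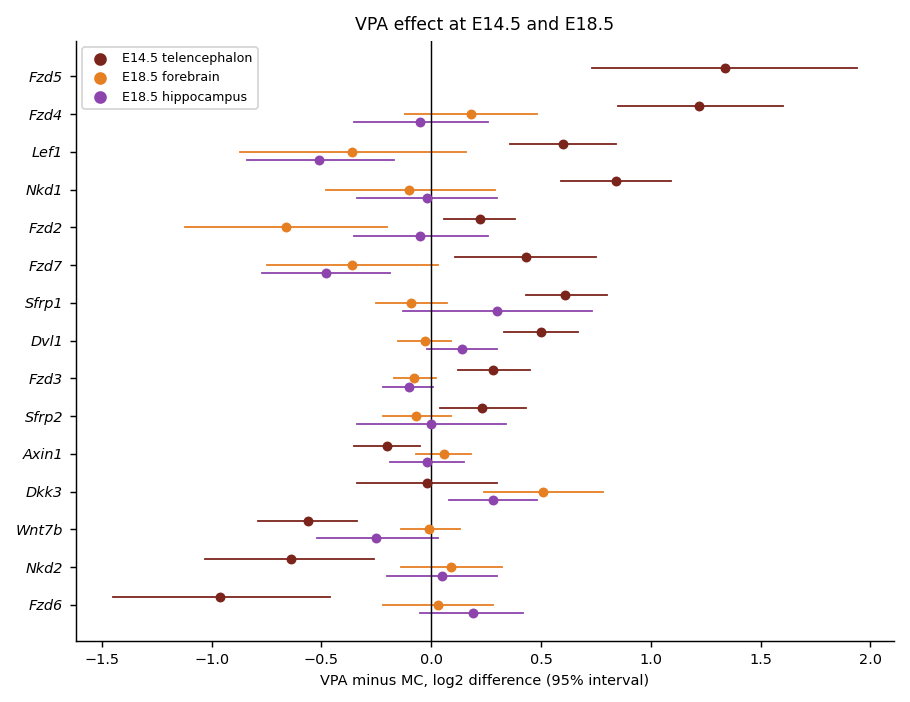
Log2 difference of VPA from MC with its 95% confidence interval in E14.5 telencephalon, E18.5 forebrain and E18.5 hippocampus, for the 15 members whose VPA effect differed between the first and the second; Fzd5 has an E14.5 value alone because it did not pass the filter in either E18.5 fit. The E14.5 points of the upper 10 members lie right of 0, and the E18.5 points lie closer to 0 or left of it, as for Nkd1, at 0.84 and -0.10.

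In adults that had been exposed before birth, the Wnt genes of the hippocampus did not separate the groups. Of 44 members tested 0 passed for VPA against MC, for the wheel against no wheel within MC or within VPA, for VPA against MC with the wheel, or for the interaction, and limma called 0% of all genes in each of these 5. Unadjusted p-values under 0.05 were found for 3, 5, 2, 3 and 2 members, again without the share of all genes at that p. The smallest for VPA against MC was that of Wnt8b, a ligand of the medial cortex and hippocampus. It read 151, 164 and 124 with MC, 122, 173 and 127 with MC and the wheel, 107, 80.5 and 109 with VPA, and 160, 124 and 180 with both. The VPA arrays without a wheel were the lowest, but the difference of -0.57 from MC did not pass (limma adjusted p = 0.391), nor did the interaction of drug and wheel, at 0.71 (limma adjusted p = 0.961). Wnt9a read 159, 156 and 142 with MC and 72.7, 106 and 82.7 with MC and the wheel, a difference of -0.82 without overlap that did not pass (limma adjusted p = 0.412). In the P84 hippocampus set, with 4 arrays a group, 0 of 42 members passed and 0 had an unadjusted p under 0.05, where limma called 0% of all genes. The smallest p there was that of Wnt10a, at -0.43 (limma adjusted p = 0.902).

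In the adult cortex 46 members were tested. For VPA against MC 0 passed, with 7 under an unadjusted p of 0.05, and 0.00735% of all genes were called. For the wheel within MC 0 passed, with 8 under that p, and 0.0147% of all genes were called. For the wheel within VPA 0 passed, with 6 under it, and the same was found for the interaction, with 6. In each of these, 0% of all genes were called. The shares of all genes are those at the adjusted p, and none was taken at the unadjusted p. Sfrp4, a secreted inhibitor, read 524, 552 and 563 with MC, 459, 449 and 448 with MC and the wheel, 437, 466 and 449 with VPA, and 464, 421 and 440 with both. The 3 MC arrays without a wheel lay above the other 9, but the differences of -0.28 for VPA (limma adjusted p = 0.267) and -0.27 for the wheel (limma adjusted p = 0.204) did not pass. The first VPA array of the cortex held a choroid plexus sum of 10922, against 938 to 1331 on the other VPA arrays.

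Gsk3b, a kinase of the destruction complex, was the one member called in the adult comparisons of drug or wheel, for VPA against MC in cortex of mice with the wheel, where 0.0220% of all genes were called. It read 3398, 3616 and 3512 with MC, 3984, 4243 and 3704 with MC and the wheel, 3819, 3911 and 3836 with VPA, and 3145, 3063 and 2902 with VPA and the wheel. The last group was below all others. Its change was -0.39 (-0.51 to -0.27; limma adjusted p = 0.0448). Of the 5 other Gsk3b probe sets 0 passed, with differences of -0.51, -0.13, 0.06, 0.01 and 0.11, and the call was lost in 5 of 6 fits that left out 1 array. The interaction of drug and wheel, at -0.52, did not pass (limma adjusted p = 0.106).

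**Figure D4:**
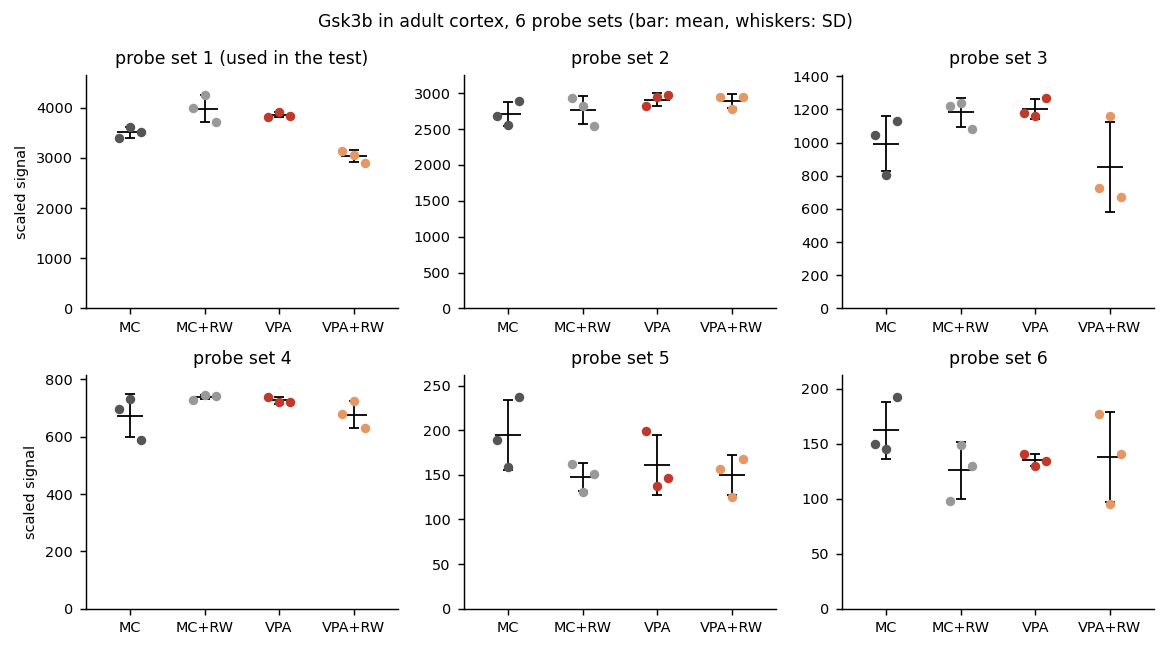
Scaled signal of the 6 Gsk3b probe sets on each adult cortex array (points; 3 per group), with group mean (bar) and SD (whiskers), on linear axes from 0; RW marks the running wheel. On probe set 1, the brightest and the one tested, the VPA group with the wheel reads 2902 to 3145, below the other groups, and the other 5 probe sets did not pass.

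The course of the Wnt genes without drug was read from the MC groups. Between E14.5 telencephalon and E18.5 forebrain, the receptors Fzd8 (-1.95; limma adjusted p = 7.54e-12) and Fzd2 (-2.21), the repressor Tcf7l1 (-1.76), the inhibitors Sfrp1 (-1.31) and Sfrp2 (-1.01) and the agonist Rspo3 (-0.97) fell. Rspo2 rose by 2.31 (limma adjusted p = 1.55e-08), Nkd2 by 1.27, Sfrp5, with some E14.5 arrays under the floor, by 1.24, Gsk3b by 0.89 and Dkk3 by 0.69. Of 38 members tested 12 rose, 19 fell and 7 did not pass, where 66.4% of all genes were called, 34.7% higher and 31.7% lower. The median was -0.26 over the members and 0.03 over all genes. The split depended on scaling: quantile normalization gave 9 higher and 23 lower, and the signals without rescaling, on which the median gene moved by 0.44, gave 12 higher and 6 lower and turned the direction of Ctnnb1, Fzd3 and Wnt7a. Of the 31 members called, 4 (Dvl3, Fzd5, Sfrp5 and Wnt4) reached 100 on no array of the lower group, so their values are descriptions. Radial glia markers summed to 48084 to 50902 at E14.5 and 31256 to 33620 at E18.5, with 7 of 8 lower, choroid plexus markers to 235 to 355 and 18181 to 26025, with 7 of 7 tested higher, and 7 of 10 endothelium and pericyte markers were higher. Their part in the course of the Wnt genes was not tested.

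At E18.5 the hippocampus of MC mice held more signal for several members than the forebrain. Of 40 members tested 13 were higher, 3 lower and 24 did not pass, where 30.0% of all genes were called, 14.9% higher and 15.1% lower. Lef1 read 341 ± 36.9 in hippocampus and 179 ± 17.7 in forebrain, a difference of 0.92. Rspo2 was higher by 1.10, Rspo3 by 1.00, Rspo1 by 1.34, Fzd7 by 1.22, Wnt5a by 1.05 and Wnt9a by 1.13, and Sfrp2 (-0.77), Wnt7b (-0.53) and Dvl1 (-0.37) were lower. Of the 16 members called, 2 (Rspo1 and Wnt9a) reached 100 on no array of the lower group, so their values are descriptions. The median was 0.21 over the members and 0.01 over all genes. Meninges markers summed to 4278 to 7244 in hippocampus and 885 to 3510 in forebrain, and ventral forebrain markers to 4438 to 4946 and 7641 to 9207, and the part of these was not tested. On the signals without rescaling 5 were higher and 2 lower. The VPA effect did not differ between these tissues in any of 40 members, with 1 under an unadjusted p of 0.05, and limma called 0% of all genes.

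From E18.5 to the adult most members tested changed, in both directions. In cortex against E18.5 forebrain 21 of 47 members rose, 17 fell and 9 did not pass, where 82.0% of all genes were called, 45.5% higher and 36.5% lower. The ligands Wnt10a (3.00), Wnt9a (2.69), Wnt2 (2.61) and Wnt4 (1.03), the R-spondin Rspo1 (2.54), the inhibitors Sfrp4 (2.40) and Dkk3 (2.09), Gsk3a (1.46), Fzd4 (1.28) and Porcn (0.91) rose, with some E18.5 arrays of Wnt10a and Wnt2 under the floor. Fzd8 (-2.86), Sfrp1 (-2.43), Sfrp2 (-2.31), Wnt7a (-2.14), Nkd2 (-1.91), Apc (-1.25), Fzd1 (-1.20), Wnt5a (-1.16), Wnt7b (-0.97) and Ctnnb1 (-0.72) fell. Sfrp1 read 3094 ± 324 in E14.5 telencephalon, 1247 ± 104 in E18.5 forebrain and 231 ± 4.85 in adult cortex, and Dkk3 read 419 ± 33.5, 676 ± 21.1 and 2899 ± 393. Quantile normalization gave 15 higher and 19 lower. Of the 38 members called, 10, among them Wnt10a, Wnt9a, Wnt2, Rspo1 and Fzd8, reached 100 on no array of the lower group. Their values are therefore descriptions, and the counts above include them. Radial glia markers summed to 10402 to 10962 in adult cortex, oligodendrocyte markers to 24828 to 29374 (3637 to 4171 in E18.5 forebrain), astrocyte markers to 22747 to 26431 (4769 to 5864) and choroid plexus markers to 1004 to 1076. Their part was not tested.

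**Figure D5:**
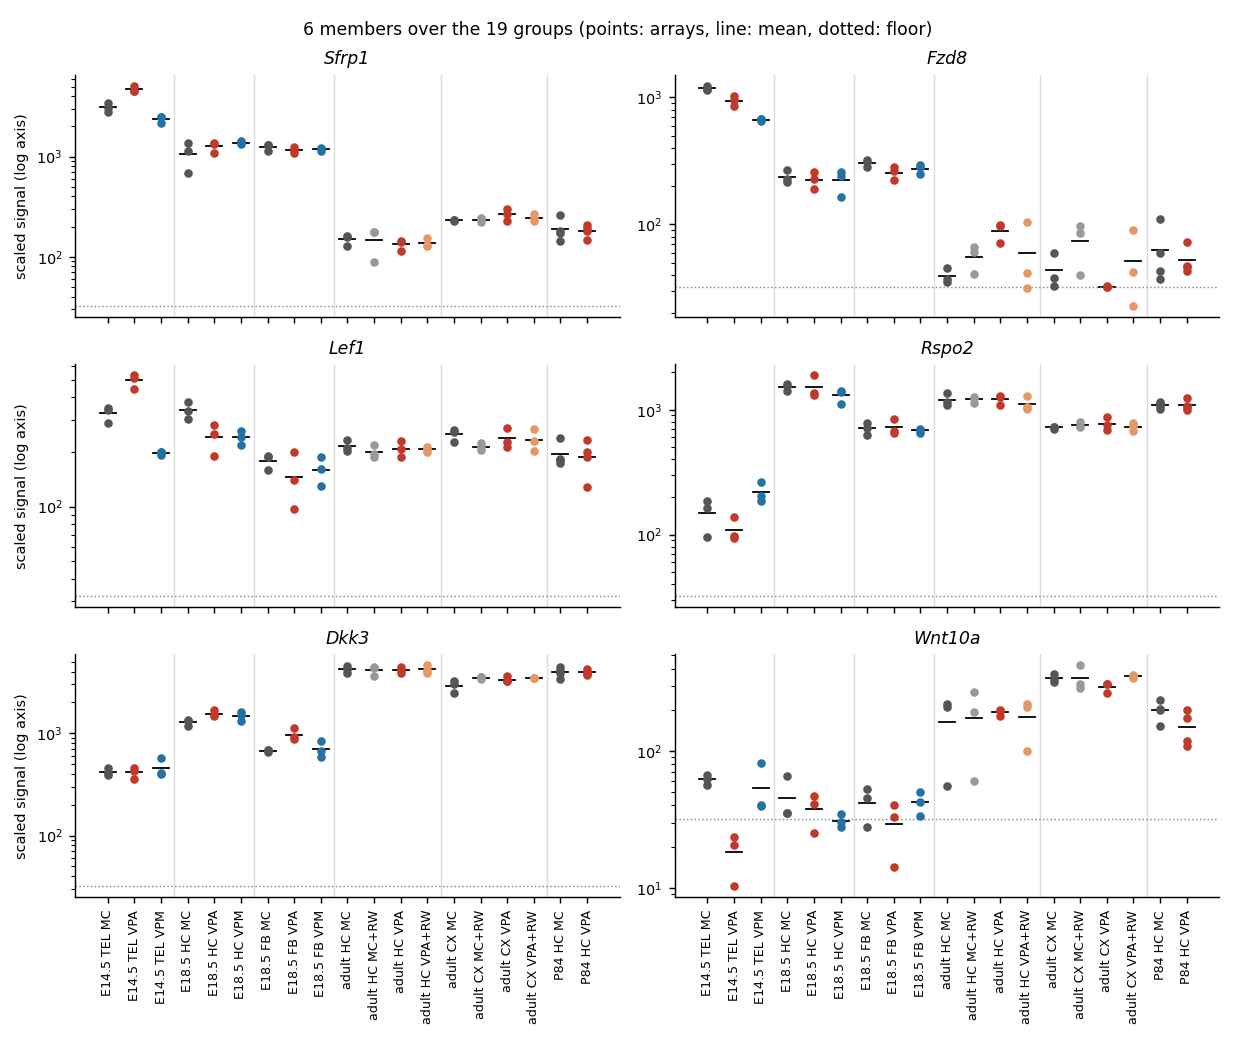
Scaled signal of 6 members on every array (points) of the 19 groups, with group means (lines), on log axes; the dotted line is the floor of 32, HC is hippocampus, FB forebrain, CX cortex, TEL telencephalon and RW the running wheel. Sfrp1 and Fzd8 are highest at E14.5, Rspo2 is lowest there, and Dkk3 and Wnt10a are highest in adult tissue.

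In P84 hippocampus against E18.5 hippocampus 18 of 46 members rose, 22 fell and 6 did not pass, where 84% of all genes were called, 45.3% higher and 38.7% lower. Gsk3a (1.75), Sfrp4 (1.71), Dkk3 (1.62), Porcn (1.45) and Wnt10a (2.17) rose, and Wnt2 was at least 6.68-fold higher, a lower bound because every E18.5 array lay under the floor. Sfrp1 (-2.47), Wnt7a (-2.35), Fzd1 (-1.97), Fzd7 (-1.82), Wnt5a (-1.74), Apc (-1.60) and Fzd3 (-1.37) fell. Quantile normalization gave 13 higher and 25 lower, and the signals without rescaling 17 and 11. Of the 40 members called, 7, among them Wnt10a and Wnt2, reached 100 on no array of the lower group. Their values are therefore descriptions, and the counts above include them. Radial glia markers summed to 13587 to 15720 at P84 and 38853 to 41986 at E18.5, oligodendrocyte markers to 25193 to 32235 and 2935 to 4233, and astrocyte markers to 26915 to 30898 and 9184 to 9848, and their part was not tested.

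Between adult hippocampus and cortex of MC mice 6 of 46 members were higher in hippocampus, 7 lower and 33 did not pass, where 18.6% of all genes were called, 8.84% higher and 9.74% lower. Rspo2 was higher by 0.73 (limma adjusted p = 6.59e-06), Nkd2 by 1.33, Wnt5a by 0.57, Dkk3 by 0.55, Fzd7 by 0.48 and Porcn by 0.35. Rspo1, which is also on the adult cortex marker list, differed by -2.0 (limma adjusted p = 2e-07), Wnt9a by -1.37, Wnt10a by -1.30, Sfrp1 by -0.64, Fzd2 and Fzd3 by -0.53 each and Wnt6 by -0.49. Of the 13 members called, 1, Rspo1, reached 100 on no array of the lower group, the hippocampus, so its value is a description. Lef1, at 215 ± 15.8 in hippocampus and 250 ± 20.4 in cortex, did not pass. Without the first hippocampus array or the second cortex array 8 members passed. The VPA effect did not differ between the 2 adult tissues in any of 46 members, with 2 under an unadjusted p of 0.05, and limma called 0% of all genes.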

How the data were processed

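RNA from 59 samples was hybridised to Affymetrix mouse arrays with 45101 probe sets, 1 array per sample. The deposited values are intensities, 1 per probe set, made by the authors with GCOS, per the submitters' processing notes; for the signal algorithm and its scaling, nothing is given in the sources used here. The trimmed mean ran from 197.6 to 419.4 between arrays, so arrays were brought to a common 2% trimmed mean, 500, signals under 32 were set to 32, and log2 was taken; 18.2% to 38.0% of probe sets were at that floor. Of the probe sets 34958 carried 1 gene symbol in the platform annotation, and the 932 with several and the 9211 with none were not named. No 2 of 1711 pairs of arrays were identical. The number of arrays limits the precision.

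Contrasts were fitted with limma 3.58.1 (R 4.3.3, the data.table package in version 1.17.8; intensity-dependent prior) over the groups of a tissue and age, with p-values adjusted over all genes tested, and the procedure was tested on simulated data. Figures and summaries used Python 3.11.15 with numpy 2.4.6, pandas 2.3.3, scipy 1.17.1 and matplotlib 3.10.9. Promoter windows came from RefSeq. The members, lists and tests were chosen with earlier results of these data known. Members were named where the adjusted p was below 0.05 and the arrays of the groups did not overlap, up to 12 per direction; where fewer than 3 passed, those with the 3 smallest p-values were named, and of the other pathway lists up to 6 genes. The alternatives were quantile normalization, signals as deposited, log2(signal + 32), no filter and a filter of 200, all probe sets tested singly, other probe sets of a member, the replicate number as a block, inferred sex as a term in embryos, and leaving out each array.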

Additional observations from a re-analysis of the deposited data

Results flagged for a closer look

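In the P84 hippocampus, 1 array stood apart from the other 3 of its group for 8 of 84 tests over 42 members in 2 groups; chance gives about 1 in 20. In the MC group these were Fzd10os at 257 (others 183 to 191), Lef1 at 238 (175 to 183), Nkd1 at 192 (248 to 257), Wnt6 at 149 (198 to 202) and Wnt7a at 119 (172 to 176). In the VPA group they were Tcf7l2 at 608 (215 to 250), Wnt6 at 166 (194 to 196) and Wnt7b at 1152 (1294 to 1315). The first MC array, which held the outlying Fzd10os, Lef1, Nkd1 and MC Wnt6 values, had a choroid plexus marker sum of 19928, against 1472 to 2556 on the other MC arrays. The fourth VPA array, which held the Tcf7l2 value, had a choroid plexus sum of 17836, against 1889 to 3142, and a thalamus marker sum of 3970, against 2832 to 3128. The part of these in the Wnt values was not tested.

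The change with VPA differed between E18.5 forebrain and E14.5 telencephalon, by the interaction term of limma, in 15 members. The difference of the 2 log2 changes was -0.53 for Dvl1, -0.88 for Fzd2, -0.36 for Fzd3, -1.04 for Fzd4, -1.40 for Fzd5, -0.79 for Fzd7, -0.96 for Lef1, -0.93 for Nkd1, -0.70 for Sfrp1 and -0.30 for Sfrp2. It was 0.26 for Axin1, 0.53 for Dkk3, 0.99 for Fzd6, 0.74 for Nkd2 and 0.56 for Wnt7b. Fzd5 passed the filter only through its E14.5 VPA arrays.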

How the results depend on the processing

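Of 205 member changes called, the alternatives gave 2419 values, of which 2141 kept the direction and the call, 263 lost the call and 15 reversed. The reversed values were those of other probe sets for Fzd3 (E14.5, VPA against MC: -0.19, -0.15 and -0.17; against VPM: -0.14) and for Gsk3b in adult cortex (0.06, 0.01 and 0.11). As deposited, Ctnnb1 (0.08), Fzd3 (0.17) and Wnt7a (0.19) reversed between E14.5 and E18.5 forebrain, and Wnt7b (0.12) between E18.5 and P84 hippocampus. With quantile normalization Fzd5 (-0.42) and Lef1 (-0.01) reversed between E18.5 forebrain and adult cortex, and Wnt11 (-0.27) and Wnt6 (-0.15) between E18.5 and P84 hippocampus. On the signals as deposited the members called numbered 9 for VPA and 5 for VPM against MC at E14.5, 18 between E14.5 and E18.5 forebrain, 4 for the VPA effect between those ages and 7 between the E18.5 tissues; no filter left 4 for VPM. For Gsk3b in cortex with the wheel, 0 members were called as deposited, without the filter, with every probe set and with the block. For VPA in E18.5 forebrain 1 was called with a filter of 200, with every probe set and with the block. Leaving out 1 array gave 13 to 19 members for VPA and 5 to 10 for VPM at E14.5, 0 to 1 for VPA in E18.5 forebrain, 0 to 1 for the wheel within MC in cortex and for VPA with the wheel there, and 8 to 13 between adult tissues. In no comparison did the deviations of every same-numbered pair correlate above 0.1, so the number was not taken as a pairing, though between the E18.5 tissues the pairs had r of 0.07 to 0.22 and 3 of 3 arrays correlated best with their own number; with the replicate block 18 members were called for VPA and 7 for VPM at E14.5, and 18 between the E18.5 tissues. Over all genes, calls at E14.5 with VPM fell from 1279 to 457 as deposited, to 619 without a filter and to 536 without the third VPM array. The number of arrays and signals near the floor limit these values, and the cause of the changes was not tested.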
